A study of Mus musculus with 2 samples.

Results

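A set of 8 genes of the common gamma chain cytokine family, namely Il2, Il2rb, Il2rg, Il7r, Il4ra, Il15, Il15ra and Il21r, were followed through the immune cells of mouse kidneys with nephrotoxic serum nephritis (NTN), an immune complex disease of the glomerulus. The genes were listed by name, and 8 of 8 were found among the 20299 genes of the data. Droplet single-cell RNA-seq gave 7314 cells in 16 clusters, which carry the cell type names given by the authors. WT and Vsir-/- mice were compared, with 1 library per genotype. Vsir-/- mice lack VISTA, an inhibitory receptor of the B7 family, in every cell from the germline on. Both were C57BL/6 mice of 8 weeks, pre-immunized with sheep IgG in Freund's complete adjuvant and then given sheep nephrotoxic serum by vein. The labels describe the WT cells as sorted for CD45, the surface marker of leukocytes, and the Vsir-/- cells as kidney cells of all kinds, whereas the methods describe a CD45 sort for single-cell work. Sort, library and genotype therefore cannot be told apart, the number of mice behind each library is not given in the sources used here, and no p-value was computed.

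Cytokines of this family signal through receptors that share 1 chain, the common gamma chain encoded by Il2rg. A private chain decides which cytokine is read: Il2rb serves IL-2 and IL-15, Il7r serves IL-7, Il4ra serves IL-4 and, without the common chain, IL-13, and Il21r serves IL-21. IL-15 is mostly not secreted freely but is held by Il15ra on the cell that makes it and shown to neighbouring lymphocytes. The chains signal through the kinases JAK1 and JAK3 to STAT factors, and genes such as Cish and Socs2 are switched on by STAT5 and damp the signal. The cytokines are known for keeping naive T cells (IL-7), NK and memory T cells (IL-15) and activated T cells (IL-2) alive and dividing.

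The WT library held 5470 cells and 32799550 UMIs (unique molecular identifiers, 1 per captured mRNA molecule), and the Vsir-/- library held 1844 cells and 18601189 UMIs, with medians of 4726.5 and 6673 UMIs per cell. Vsir itself gave 4278 UMIs in 2210 WT cells and 8 UMIs in 8 Vsir-/- cells. The 2 libraries shared 5 cell barcodes. In Vsir-/-, 233 of the 349 cells named non-EM-like CD4+ T (EM, effector memory) and 123 of the 189 named proliferating had no UMI of a CD3 or T cell receptor constant gene, against 0 of 895 and 4 of 118 in WT. Values for these clusters are therefore also given for cells with such a transcript. It was also seen in 505 of 594 WT NK cells, so this limit does not single out T cells. The NKT cluster, which was seen in WT only, carried B cell markers at a summed 2473 CPM beside NK markers at 1832 and T cell markers at 1600. The EM-like CD4+ T cluster held cells with Cd8 and no Cd4 UMIs and cells with neither.

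Levels are given as CPM, that is, UMIs of the gene for each 1000000 UMIs of the cells of a cluster, with exact Poisson 95% intervals in parentheses. These intervals, and the binomial intervals of shares, cover counting error only and not the spread between mice, which 1 library per genotype cannot show. Differences are log2 ratios with exact conditional intervals. The intervals of levels and ratios treat UMIs as independent, so they leave out that 1 cell can hold many of them. In a sum over a cluster, fewer expressing cells and less RNA per cell cannot be told apart. The clusters were made from all genes, so differences between clusters are descriptions.

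The bases before the start site of 3 members are shown because these members mark the 3 patterns that follow, a broad chain (Il2rg), a chain of naive T cells and innate lymphocytes (Il7r) and an activation-induced cytokine (Il2). The letters are from RefSeq on GRCm38.p6, a later build than the mm9 listed for the data, and were matched by symbol. Each runs 5′ to 3′ over the 250 bases before the start on the minus strand. Capitals mark a Runx match (TGTGGT) and an Ets match (CCGGAAG) in Il2rg at chrX:101268256-101268505, an Ets match on the other strand (ACTTCCT) in Il7r at chr15:9529877-9530126, and NFAT matches (GGAAAA or TTTTCC) in Il2 at chr3:37125955-37126204.
Il2rg: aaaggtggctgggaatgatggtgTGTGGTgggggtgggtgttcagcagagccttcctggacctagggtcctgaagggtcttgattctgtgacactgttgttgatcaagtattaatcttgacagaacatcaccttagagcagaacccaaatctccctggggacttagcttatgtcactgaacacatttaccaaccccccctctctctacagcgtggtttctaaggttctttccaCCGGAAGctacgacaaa
Il7r: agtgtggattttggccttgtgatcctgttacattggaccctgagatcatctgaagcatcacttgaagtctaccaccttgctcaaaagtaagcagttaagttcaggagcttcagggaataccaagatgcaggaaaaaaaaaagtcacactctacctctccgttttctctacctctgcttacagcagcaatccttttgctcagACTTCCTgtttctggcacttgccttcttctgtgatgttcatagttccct
Il2: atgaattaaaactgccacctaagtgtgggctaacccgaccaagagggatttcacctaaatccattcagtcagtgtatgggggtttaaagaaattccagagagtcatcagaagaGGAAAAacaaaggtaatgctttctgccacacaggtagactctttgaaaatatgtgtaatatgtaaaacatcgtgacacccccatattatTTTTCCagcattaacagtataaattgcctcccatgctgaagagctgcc

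The Ets match of Il2rg began 17 bases before the start and that of Il7r 49 bases before it. The NFAT matches of Il2 began 137 and 48 bases before the start. Il7r held a further NFAT match 121 bases and a STAT match (TTCNNNGAA) 142 bases before its start. Over both strands, 14.1% of 32851 such windows held an Ets match (CCGGAAG or AGGAAGT), 20.4% an NFAT match, 14.0% a Runx match and 7.02% a STAT match, and 6.75% an AP-1 match (TGANTCA), which was not seen in these 3, so each is common and is a description of letters, not of a bound site.

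Il2rb, the signalling chain shared by the IL-2 and IL-15 receptors, was highest in the clusters named NK and EM-like CD4+ T. In WT, NK cells held 719 CPM (692–747, 2702 UMIs) and EM-like CD4+ T cells 712 CPM (681–744, 1996 UMIs), which overlapped. Of these 1996 UMIs, 141 lay in cells with Cd4 and no Cd8 UMIs and 1487 in cells with neither. NK markers in that WT cluster summed to 801 CPM, and their part in its Il2rb level was not tested. Then came NKT cells at 442 CPM (384–507), proliferating cells at 366 (340–394) and EM-like CD8+ T cells at 293 (257–332). Non-EM-like CD8+ T cells, at 144 CPM, and γδ T cells, at 143 CPM, did not differ beyond their intervals, and non-EM-like CD4+ T cells held 16.8 CPM. An Il2rb UMI was seen in 90.2% of WT NK cells (median 5491.5 UMIs per cell) against 2.99% of WT B cells (median 3426), the share in a lymphocyte with little of this chain.

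In Vsir-/-, NK cells held 621 CPM of Il2rb (555–694) and EM-like CD4+ T cells 421 CPM (390–454), so here the 2 did not overlap. The Vsir-/- over WT log2 ratio was −0.21 (−0.38 to −0.04) in NK and −0.76 (−0.89 to −0.63) in EM-like CD4+ T cells, both within 2-fold. EM-like CD8+ T cells differed by −0.05 (−0.53 to 0.41), non-EM-like CD8+ T cells by 0.29 (−0.07 to 0.63) and γδ T cells by 0.39 (−0.33 to 1.09). EM-like CD4+ T cells held 28.0% of all Il2rb UMIs of the WT library and 47.9% of those of the Vsir-/- library, and NK cells 37.9% and 22.7%. The NK marker list in the EM-like CD4+ T cluster summed to 801 CPM for WT against 215 CPM for Vsir-/-. In the EM-like CD8+ T cluster it summed to 2038 and 331 CPM. Its part in the Il2rb differences of both clusters was not tested. Among EM-like CD4+ T cells with Cd4 and no Cd8 UMIs, Il2rb stood at 236 CPM for WT and 215 CPM for Vsir-/- (log2 −0.14, −0.51 to 0.23).

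Proliferating cells held 366 CPM of Il2rb in WT and 43.9 CPM in Vsir-/-. Among those with a T cell transcript the values were 371 and 132 CPM (log2 −1.49). NK markers in the whole proliferating cluster summed to 1270 CPM in WT and 80.3 CPM in Vsir-/-. Their part in these Il2rb values was not tested. Non-EM-like CD4+ T cells showed 16.8 and 6.74 CPM (−1.32). Among cells with a T cell transcript Vsir-/- held 25.4 CPM, with an interval of the ratio that held 0 (log2 0.60, −0.06 to 1.22). The Vsir-/- cells without such a transcript had 0 Il2rb UMIs in 233 cells.

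Il7r, the private chain of the IL-7 receptor, which also pairs with Crlf2 for the cytokine TSLP, was highest in γδ T cells and group 2 innate lymphoid cells (ILC2). In WT, γδ T cells held 1258 CPM (1130–1396), with an Il7r UMI in 46 of 46 cells, and ILC2 820 CPM (734–914). Non-EM-like CD8+ T cells at 487 CPM (468–507) and non-EM-like CD4+ T cells at 478 CPM (457–498) overlapped, and together they carried most Il7r UMIs of the WT library (38.5% and 33.2%). Basophils, with 25 WT cells, held 296 CPM (214–398), which overlapped EM-like CD4+ T cells at 210 CPM (193–227). T cell markers in the WT basophil cluster summed to 474 CPM, and their part in its Il7r value was not tested. EM-like CD8+ T cells (20.7 CPM), NK cells (30.1 CPM) and NKT cells (17.3 CPM) stood low. An Il7r UMI was found in 84.2% of WT CD8+ T cells of the non-EM-like cluster, against 2.27% of WT B cells, at median depths of 7117 and 3426 UMIs.

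The Vsir-/- library kept γδ T cells highest for Il7r, at 745 CPM (623–883, log2 ratio −0.76, −1.06 to −0.46). Non-EM-like CD8+ T cells held 330 CPM (279–388, log2 −0.56, −0.81 to −0.32) and EM-like CD4+ T cells 110 CPM (93.9–127, log2 −0.94, −1.19 to −0.69). These 3 were lower in Vsir-/- with intervals apart from 0, each within 2-fold. Non-EM-like CD4+ T cells were at 59.4 CPM (log2 −3.01). Over the 116 cells in which a T cell transcript was seen the level was 224 CPM (198–252, log2 −1.09, −1.28 to −0.91), since the other 233 held 0 Il7r UMIs. Of the 67 Vsir-/- NK cells 0 held an Il7r UMI, which allows a share of up to 5.36%, against 51 of 594 in WT, so Il7r was at least 5.08-fold lower there against the floor of 3 counts. T cell markers in the NK cluster were lower with it, at a summed 1120 CPM in WT and 481 in Vsir-/-, with 198 and 0 UMIs of Cd3e, and their part in this value was not tested. EM-like CD8+ T cells went the other way, from 17 to 8 UMIs (20.7 and 48.2 CPM), with an interval that held 0 (log2 1.22, −0.20 to 2.51). Proliferating cells held 32.3 and 10.6 CPM (log2 −1.61), and among those with a T cell transcript 32.9 and 32.6 CPM (−0.01).

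**Figure D1:**
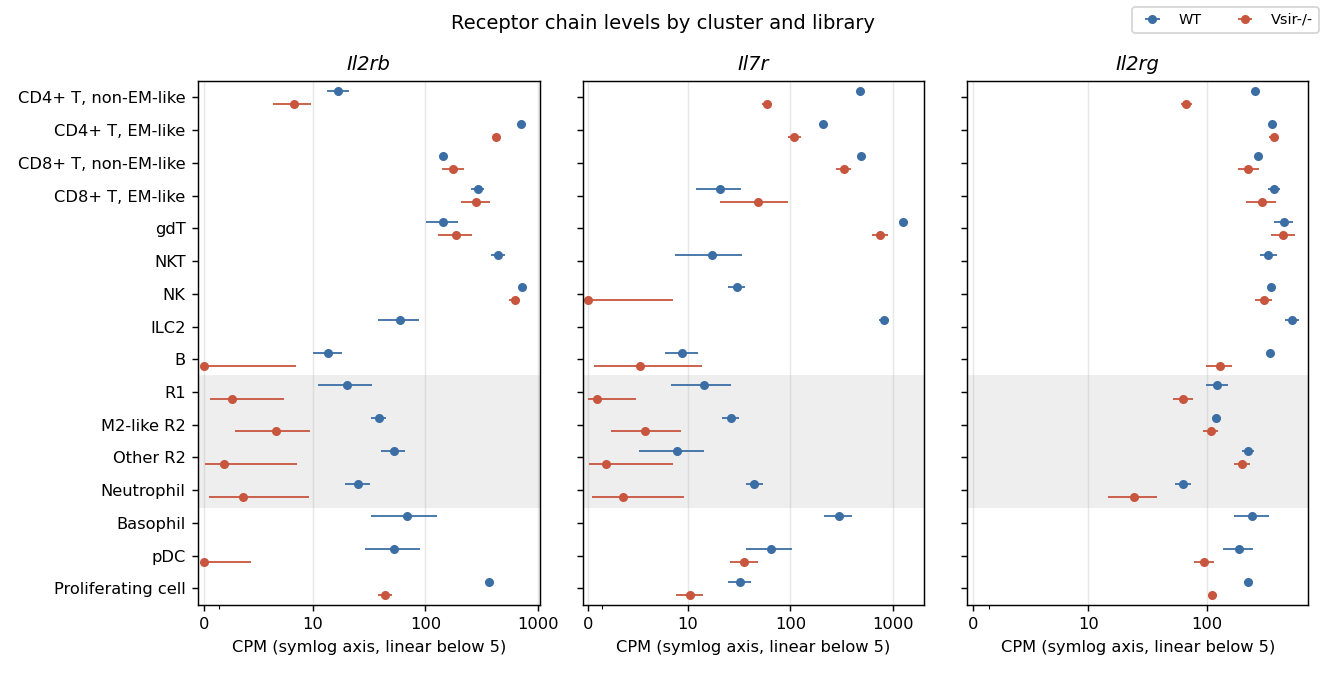
Levels of Il2rb, Il7r and Il2rg (CPM, log axis that is linear below 5) in each cluster of the WT and Vsir-/- libraries, with exact Poisson 95% intervals as bars and the myeloid clusters on the grey band. Il2rb peaks in the NK cluster (719 and 621 CPM) and the EM-like CD4+ T cluster, Il7r in γδ T cells (1258 and 745 CPM), while Il2rg varies far less between clusters. Of the 1996 WT Il2rb UMIs in the EM-like CD4+ T cluster, 1487 lay in cells with neither Cd4 nor Cd8 UMIs.

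Il2rg, the common gamma chain itself, was found in every cluster. WT ILC2 held 520 CPM (452–596) and γδ T cells 442 CPM (367–527), which overlapped, followed by EM-like CD8+ (369), EM-like CD4+ (355), NK (348), B (339) and NKT cells (330 CPM). Macrophages held less, with 221 CPM in the Other R2 cluster, 122 CPM in R1, the kidney-resident subset, and 120 CPM in the M2-like R2 cluster of infiltrating cells, and neutrophils were lowest at 62.9 CPM (53.4–73.6).

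Between genotypes Il2rg stayed close in most lymphocytes, with log2 ratios of 0.03 (−0.12 to 0.18) in EM-like CD4+ T cells, −0.01 (−0.43 to 0.41) in γδ T cells and −0.21 (−0.46 to 0.04) in NK cells. The M2-like R2 and Other R2 macrophages differed by −0.15 and −0.16, whereas R1 macrophages went from 122 CPM in WT to 63.1 CPM in Vsir-/-. The cluster named plasmacytoid dendritic cells went from 185 to 94.7 CPM, and like R1 it stayed within 2-fold. B cell markers went from a summed 1131 to 56.2 CPM in R1 and from 616 to 16.1 CPM in the dendritic cell cluster. T cell markers went from 574 to 20.6 CPM and from 559 to 26.2 CPM. The part of both lists in these 2 Il2rg differences was not tested. Il2rg was lower in Vsir-/- B cells, at 128 against 339 CPM (log2 −1.41, −1.79 to −1.05), and in neutrophils, at 24.5 against 62.9 CPM (−1.36, −2.13 to −0.67). The B cell marker list was itself lower in the Vsir-/- B cluster (2122 against 5678 CPM, log2 −1.42), and its part in the B cell differences was not tested. In neutrophils T cell markers went from a summed 451 to 55.3 CPM and B cell markers from 173 to 3.86 CPM. Their part in the neutrophil Il2rg value was not tested. In non-EM-like CD4+ T cells the ratio of −1.93 became −0.57 among cells with a T cell transcript, and in proliferating cells −1.01 became −0.24.

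Il4ra, the chain that binds IL-4 and IL-13 and is known for steering macrophages to a repair state, was shared by lymphoid and myeloid clusters. Of its WT UMIs 59.3% lay in lymphoid and 36.9% in myeloid clusters. In WT the cluster named plasmacytoid dendritic cells (pDC, 21 cells) held 151 CPM (108–206) and neutrophils 122 CPM (109–137), which overlapped. Then came B cells at 96.5 (86.4–107), M2-like R2 macrophages at 75.6 (67.7–84.2) and non-EM-like CD4+ T cells at 75.0 CPM. Low levels were seen in NK (14.9 CPM), EM-like CD8+ (17 CPM) and γδ T cells (21.4 CPM). M2-like R2 macrophages held 74.0 CPM in Vsir-/- (log2 −0.03, −0.34 to 0.27) and came first in that library, overlapping pDC. Vsir-/- neutrophils held 54.1 CPM (log2 −1.18, −1.68 to −0.71), B cells 43.8 CPM (−1.14, −1.82 to −0.53) and pDC 59.2 CPM (−1.35, −1.93 to −0.75), each past 2-fold. In the pDC cluster the B cell markers went from a summed 616 to 16.1 CPM, T cell markers from 559 to 26.2 CPM and NK markers from 246 to 5.07 CPM, and their part in the Il4ra value was not tested. This cluster also held conventional dendritic cell markers (Cd209a, Flt3, Xcr1, Clec9a), at 514 CPM in WT and 767 CPM in Vsir-/-. Its plasmacytoid list (Siglech, Ccr9, Bst2, Tcf4) stood at 2002 and 1421 CPM.

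Il21r, the receptor of the helper T cell cytokine IL-21, was highest in WT B cells at 125 CPM (113–137, 435 UMIs), followed by EM-like CD8+ (103, 82.5–128), EM-like CD4+ (98.1, 86.9–110) and non-EM-like CD4+ T cells (90.7 CPM), neighbours in this order that overlapped. R1 macrophages held 77.7 CPM (58.4–101), near the level of non-EM-like CD8+ T cells at 81.8. In Vsir-/-, R1 was at 63.7 CPM (log2 −0.29, −0.78 to 0.22) and stood at the top of its library. Beside it were EM-like CD4+ T cells at 61.5 CPM (log2 −0.67, −1.02 to −0.34). B cell markers in the R1 cluster summed to 1131 CPM in WT and 56.2 CPM in Vsir-/-. T cell markers there summed to 574 and 20.6 CPM, and the part of both lists in the R1 values was not tested. B cells were at 45.7 CPM (log2 −1.45, −2.11 to −0.86) and non-EM-like CD4+ T cells at 7.61 CPM, or 27.1 CPM with a T cell transcript (log2 −1.74).

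Il15, which feeds NK and memory T cells, had 81.0% of its UMIs in myeloid clusters in WT and 55.0% in Vsir-/-. Lymphoid clusters held 10.4% and 21.7%, and proliferating cells 3.16% and 20.5%. WT neutrophils held 57.2 CPM (48.2–67.5, 142 UMIs) and Vsir-/- neutrophils 66.9 CPM (52 UMIs), a log2 ratio of 0.23 (−0.26 to 0.69). R1 macrophages held 24.5 and 24.4 CPM (−0.01, −0.86 to 0.91), M2-like R2 18.4 and 20.9 CPM (0.18, −0.44 to 0.77) and Other R2 12.5 and 14.2 CPM (0.19, −1.06 to 1.39). The order from neutrophils to macrophages was the same in both libraries, and these intervals leave room for differences of up to the sizes they span. The 25 WT basophils held 89.4 CPM (47.6–153, 13 UMIs), which overlapped neutrophils.

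No Il15 UMI was seen in 895 WT non-EM-like CD4+ and 659 WT non-EM-like CD8+ T cells, where the upper limits of 0 counts are 0.828 and 0.729 CPM. A UMI was seen in 23.5% of WT neutrophils at a median of 3565 UMIs per cell, against 0% of those CD8+ T cells at 7117. In WT macrophages the neutrophil marker list stood at 0.670 to 1.67% of its level in neutrophils. Il15 there stood at 21.8 to 42.7% of the neutrophil level, and the part of neutrophil transcripts in it was not tested. Vsir-/- cells named non-EM-like CD4+ T held 39 Il15 UMIs (8.48 CPM), of which 27 lay in cells without a T cell transcript and 12 in the 116 cells with one. Against the floor in WT this was at least 12.6-fold higher. In proliferating cells Il15 went from 4.97 to 11.5 CPM (log2 1.21, 0.21 to 2.35), with 40 of the 51 Vsir-/- UMIs in cells without a T cell transcript. A list of kidney tubule genes was raised throughout the Vsir-/- library, from a summed 447 CPM in pDC to 5086 CPM in the non-EM-like CD4+ T cluster, and reached at most 11.2 CPM in any WT cluster, and its part in these values was not tested.

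Il15ra, which presents IL-15, was sparse. Macrophages held 11.3 to 20.7 CPM over both libraries, neutrophils 8.46 CPM in WT and 5.15 in Vsir-/-, and WT ILC2 62.0 CPM, with 11 of the 25 UMIs in 1 cell. EM-like CD4+ T cells went from 12.1 to 19.0 CPM (log2 0.65, −0.11 to 1.40). In B cells 4 UMIs in WT stood against 14 in Vsir-/-, 9 of them in 1 cell, which did not pass the filter of 20 UMIs. Among non-EM-like CD4+ T cells the level went from 1.80 to 16.7 CPM (log2 3.22), with 67 of 77 Vsir-/- UMIs in cells without a T cell transcript. Il15 and Il15ra were found in the same cell in 4.22% of Vsir-/- R1 macrophages (10 of 237 cells) where the product of the single shares was 1.27%, and in 0.763% of WT neutrophils where it was 0.941%.

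**Figure D2:**
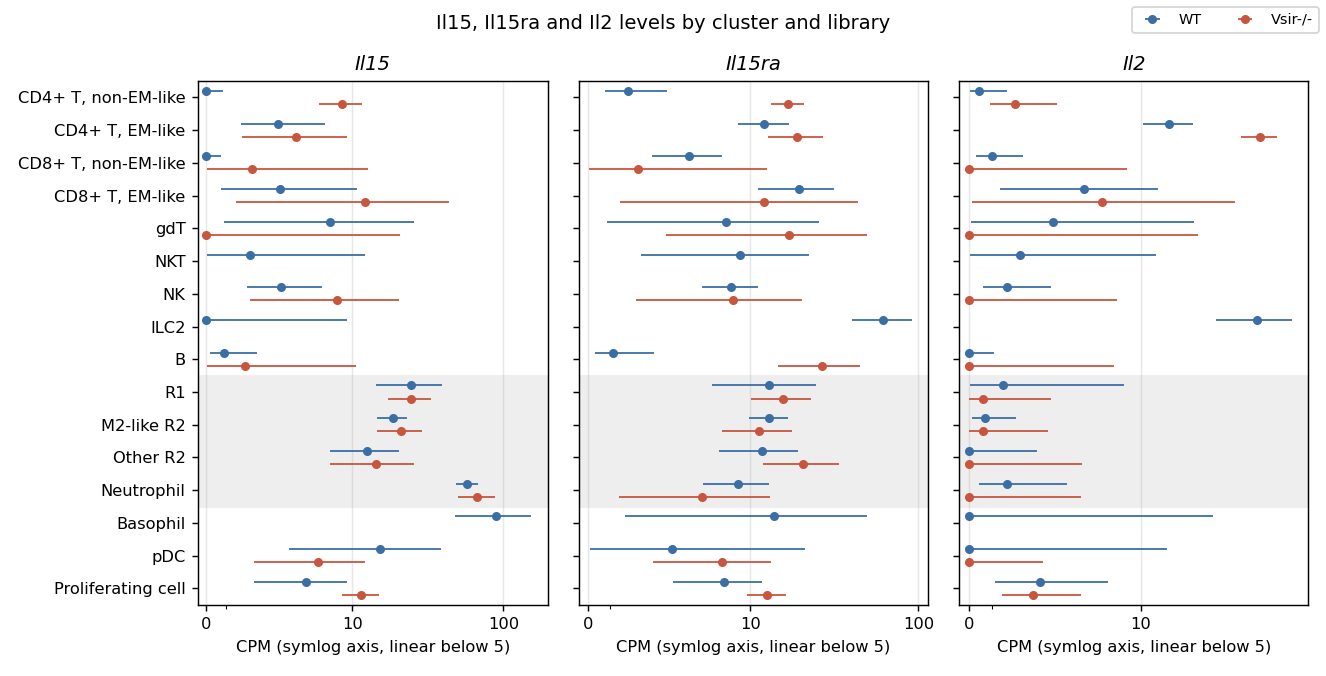
Levels of Il15, Il15ra and Il2 (CPM, log axis that is linear below 5) in each cluster of the WT and Vsir-/- libraries, with exact Poisson 95% intervals as bars and the myeloid clusters on the grey band. Clusters under 20 cells in a library have no point. Il15 is highest in WT basophils (89.4 CPM) and in neutrophils (57.2 and 66.9 CPM), and Il2 in EM-like CD4+ T cells (14.3 and 46.3 CPM) and ILC2.

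The lymphoid clusters (the 4 CD4+ and CD8+ T clusters, γδ T, NKT, NK, ILC2 and B) were set against the myeloid ones (R1, M2-like R2, Other R2 and neutrophils) within each library. In WT 5 members were at least 2-fold higher in lymphoid cells, where 20.8% of all tested genes were, and 1 was at least 2-fold higher in myeloid cells, where 16.5% were. Il2rb held 281 CPM in lymphoid and 35.3 CPM in myeloid cells (log2 3.0), Il7r 280 and 27.8 CPM (3.33), Il21r 81.2 and 29.9 CPM (1.44) and Il2rg 315 and 119 CPM (1.41). Il2, at 3.58 and 0.904 CPM, was the fifth (1.98). Il15 was the reverse, with 1.53 CPM in lymphoid and 28.9 CPM in myeloid cells, 18.9-fold higher in the latter (log2 −4.24, −4.81 to −3.71). Il4ra (−0.60) and Il15ra (−0.78) lay on the myeloid side within 2-fold. Myeloid cells carried 81.0% of all Il15 UMIs of the WT library and lymphoid cells 85.0% of all Il2rb and 94.2% of all Il7r UMIs.

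In Vsir-/- 3 members were at least 2-fold higher in lymphoid cells (33.5% of genes tested) and 2 in myeloid cells (9.47%). The latter count was 1 under 5 alternatives, in which Il4ra was within 2-fold, and the former was 4 under 5 alternatives. Il2rb held 144 and 2.90 CPM (log2 5.64), Il7r 96.7 and 2.28 CPM (5.41) and Il2 11.8 and 0.414 CPM (4.83). Il15, at 6.64 and 28.4 CPM, was 4.28-fold higher in myeloid cells (log2 −2.10), and 27 of its 54 lymphoid UMIs lay in non-EM-like CD4+ T cells without a T cell transcript. Il4ra stood at 27.4 and 55.3 CPM (−1.01), and Il2rg at 171 and 93.9 CPM (0.86). The lymphoid sum included 233 non-EM-like CD4+ T cells without a T cell transcript. All 31 Il2rb and 273 Il7r UMIs of that cluster, and 211 of its 309 Il2rg UMIs, lay in the other 116 cells. The 233 cells therefore lower the lymphoid CPM of Il2rb and Il7r set beside WT. With the limit to cells with a T cell transcript, 4 members were at least 2-fold higher in lymphoid cells. Il21r, at 24.6 CPM in lymphoid and 41.4 CPM in myeloid cells, had the opposite sign to WT (−0.75), and it was 0.01 when T and proliferating cells were limited to those with a T cell transcript.

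**Figure D3:**
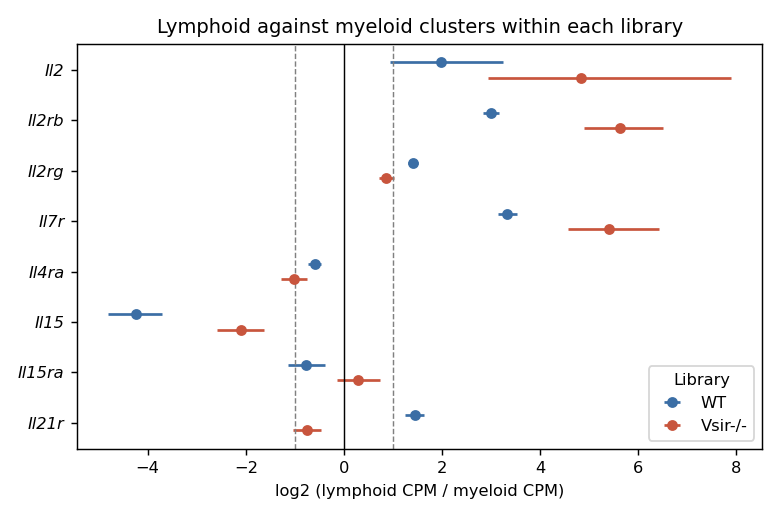
Log2 ratio of the lymphoid to the myeloid level of each member within the WT and the Vsir-/- library, with exact conditional 95% intervals as bars and dashed lines at a 2-fold difference. Il2rb and Il7r lie far to the lymphoid side in both libraries (3.0 and 5.64, and 3.33 and 5.41), Il15 on the myeloid side (−4.24 and −2.10), and Il21r changes side.

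The myeloid levels of Il2rb and Il7r in WT sat in few cells. Of 1284 WT myeloid cells, 235 (18.3%) held at least 2 UMIs of T or NK markers, and these carried 91.3% of the myeloid Il2rb UMIs and 86.6% of the myeloid Il7r UMIs. Their Il2rb level was 121 CPM against 4.16 CPM in the other myeloid cells, and their Il7r level 90.3 against 5.08 CPM. Their median depth was 9183 UMIs against 4329. In Vsir-/- 8 of 694 myeloid cells (1.15%) were of this kind, and the rest held 0.847 CPM of Il2rb and 1.06 CPM of Il7r. The 235 WT cells carried 19.1% of the WT myeloid Il15 UMIs, with 20.8 CPM against 31.9 CPM in the rest. T cell markers summed to 310 to 574 CPM over the WT myeloid clusters and to 6.47 to 55.3 CPM over the Vsir-/- ones, and their part in the Il2rb and Il7r values was not tested.

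Both genes were past 2-fold lower in several myeloid clusters of Vsir-/-. Il2rb in Other R2 macrophages went from 67 UMIs (52.3 CPM, 26 UMIs in 1 cell) to 1 UMI (log2 −5.34, −10.66 to −2.81), in M2-like R2 from 38.5 to 4.78 CPM (−3.01) and in neutrophils from 25.0 to 2.57 CPM (−3.28). Il7r in neutrophils went from 44.7 to 2.57 CPM (−4.12) and in M2-like R2 from 26.2 to 4.18 CPM (−2.65). Il21r in neutrophils went from 12.9 to 1.29 CPM (32 and 1 UMIs, −3.33). Among cells with fewer than 2 T or NK marker UMIs, a limit set after the values were seen, 27 WT and 4 Vsir-/- Il2rb UMIs and 33 and 5 Il7r UMIs were left over all 4 myeloid clusters, which is too few to read the clusters singly. For Il4ra in neutrophils the value among such cells was −1.24, against −1.18 over all cells.

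Each member in each of the 13 clusters with at least 20 cells in both libraries was then set between genotypes, and 74 pairs of gene and cluster had at least 20 UMIs. Of these, 5 were at least 2-fold higher in Vsir-/- (17.6% of all such pairs over all genes were) and 26 at least 2-fold lower (9.83%). Without the non-EM-like CD4+ T and proliferating clusters, where the median log2 ratio of all genes was itself 0.92 and 0.53, 60 pairs were left, 2 higher (background 10.3%) and 17 lower (9.82%). Of these 17, 7 were Il2rb or Il7r in myeloid or B clusters. A pair that passed only through WT UMIs had to be lower, so the counts are a description.

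In B cells 5 of 5 members that passed were past 2-fold lower (16.7% of genes), with a median of −1.24 against −0.08 over all genes. T cell markers in the B cluster summed to 86.7 CPM in WT and 7.62 in Vsir-/-, and NK markers to 28.4 and 1.91 CPM, and their part in the Il2rb and Il7r values there was not tested. The interval of Il7r there held 0 (31 and 2 UMIs, log2 −1.22, −4.33 to 0.75), and Il2rb had 47 and 0 UMIs, at least 2.36-fold lower against the floor. In neutrophils 5 of 7 were past 2-fold lower (11.9% of genes), with a median of −1.36 against −0.08. They were Il2rb, Il2rg, Il7r, Il4ra and Il21r (32 and 1 UMIs), whereas Il15 was at 0.23. Il21r rests on few UMIs and was at 0.72 after thinning to 1000 UMIs per cell. Most myeloid Il2rb and Il7r UMIs of WT, and 39.4% of the Il2rg UMIs, lay in cells with at least 2 T or NK marker UMIs. In EM-like CD4+ T cells 1 of 7, Il2, was past 2-fold higher (10.4% of genes) and 0 past 2-fold lower (5.68%). In NK cells the median was −0.21 against 0.03, with 1 of 6 past 2-fold lower (Il7r, background 7.60%). R1 and γδ T cells had 0 of 5 and 0 of 3 past 2-fold in either direction, where 14.3% and 6.24% of all genes were higher and 8.67% and 7.52% lower. Among 7 members in M2-like R2 macrophages 0 were higher (8.07%) and 2 lower (8.17%), and among 6 in Other R2 0 and 1 (6.71% and 10.1%). EM-like CD8+ T cells had 1 of 4 higher (5.22%) and 1 lower (12.6%), non-EM-like CD8+ T cells 0 of 6 higher (9.89%) and 1 lower (10.1%), and pDC 0 of 4 higher (13.2%) and 1 lower (9.50%). In neutrophils, NK and B cells 0 were past 2-fold higher (9.74%, 9.07% and 15.8% of genes). The non-EM-like CD4+ T cluster had 2 of 7 higher (48.0%) and 5 lower (10.7%), and proliferating cells 1 of 7 higher (38.0%) and 4 lower (8.98%). Of the other pairs past 2-fold, Il15ra in non-EM-like CD8+ T cells rested on 23 and 1 UMIs, with an interval from −6.37 to 1.62.

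**Figure D4:**
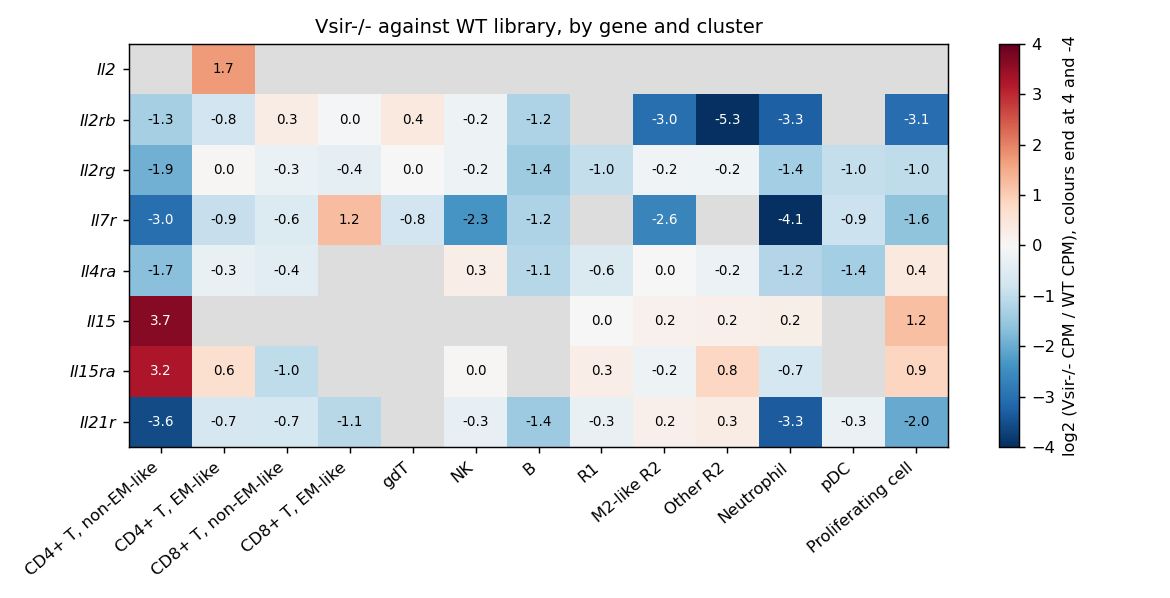
Log2 ratio of the Vsir-/- to the WT level (CPM) of each member in each of 13 clusters, on a colour scale that ends at −4 and 4, with grey for pairs under 20 UMIs or with no ratio. The neutrophil and B cell columns are low for 5 members each, the Il15 row is near 0 in neutrophils and macrophages, and Il2 has a value in EM-like CD4+ T cells only (1.70). Where a library held 0 UMIs (Il7r in NK, Il2rb in B, Il15 in non-EM-like CD4+ T cells), the value is a bound against 3 counts.

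EM-like T cells were set against non-EM-like T cells of the same lineage as well. In WT CD4+ T cells Il2rb was higher in the EM-like cluster by 5.40 on the log2 scale (5.07 to 5.76) and Il2 by 4.99 (3.04 to 8.09), while Il7r was lower (−1.19, −1.32 to −1.05), as was Il4ra at −0.91. Over all genes 18.4% were at least 2-fold higher and 3.56% lower. Of the 1996 Il2rb UMIs of the WT EM-like CD4+ T cluster, 141 lay in cells with Cd4 and no Cd8 UMIs. Cells with neither held 1487, and cells with Cd8 and no Cd4 held 345. NK markers in this cluster summed to 801 CPM, and the part of these cells and markers in the contrast was not tested. In WT CD8+ T cells Il2rb was higher by 1.02 and Il7r lower (−4.56, −5.34 to −3.88), as was Il4ra (−1.78, −2.67 to −1.01), where 18.2% and 7.94% of all genes passed. In Vsir-/- CD8+ T cells Il7r was again lower (−2.78, −4.02 to −1.76) and Il2rb differed by 0.68 (18.9% higher and 9.46% lower over all genes). Vsir-/- CD4+ T cells had Il7r at 0.89 and Il2rb at 5.96 (10.2% and 34.8%), with the non-EM-like cluster there mostly of cells without a T cell transcript.

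Il2, the growth factor that activated T cells make, was highest per UMI in ILC2 of the WT library and came in the largest number of UMIs from EM-like CD4+ T cells. WT ILC2 held 44.6 CPM (26.4–70.5), apart from WT EM-like CD4+ T cells at 14.3 CPM (10.2–19.4). The EM-like CD4+ T cluster held 40 of the 91 Il2 UMIs of the WT library and 73 of the 110 of the Vsir-/- library. Of its 489 WT cells 35 (7.16%) held an Il2 UMI, and of its 244 Vsir-/- cells 45 (18.4%), against 0 of 969 and 0 of 88 B cells, which allows shares of up to 0.380% and 4.11%. Median depths were 4903 and 5852.5 UMIs in the T cells and 3426 and 3596.5 in the B cells. ILC2 held 18 UMIs in 14 of 79 WT cells and 13 UMIs in 4 of 19 Vsir-/- cells, 8 of them in 1 cell. The Vsir-/- proliferating cells held 12 and the Vsir-/- non-EM-like CD4+ T cells 9.

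The Il2 difference was also taken within groups of EM-like CD4+ T cells by their Cd4 and Cd8 UMIs, a split made after seeing the data. Cells with Cd4 and no Cd8 went from 15.1 CPM (9 UMIs in 8 of 92 cells) to 86.4 CPM (45 UMIs in 27 of 76 cells), a log2 ratio of 2.52 (1.47 to 3.74). Cells with neither went from 12.6 CPM (18 UMIs, 294 cells) to 32.1 CPM (24 UMIs, 125 cells), a ratio of 1.35 (0.41 to 2.32). Cells with Cd8 and no Cd4 held 15.1 CPM (10 UMIs, 93 cells) and 10.3 CPM (3 UMIs, 40 cells), a ratio of −0.55 (−3.04 to 1.41). The interval of the last did not overlap that of the first, though it rests on 13 UMIs.

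Of the receptor chains in cells with Cd4 and no Cd8, Il2rg and Il2ra were also higher in Vsir-/-, and Il7r was lower. Il2rg went from 288 to 442 CPM (log2 0.61, 0.32 to 0.91) and Il7r from 350 to 188 CPM (−0.90). Il2ra, the high-affinity IL-2 receptor chain, went from 20.1 to 44.2 CPM (12 and 23 UMIs, 1.13, 0.07 to 2.27). Il15ra had 3 and 15 UMIs, which did not pass the filter of 20 UMIs. In cells with Cd8 and no Cd4, Il2rb went from 521 to 248 CPM (−1.07) and Il7r from 199 to 27.6 CPM (−2.85). Cells with neither held the most Il2rb, 1039 and 630 CPM (−0.72).

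**Figure D5:**
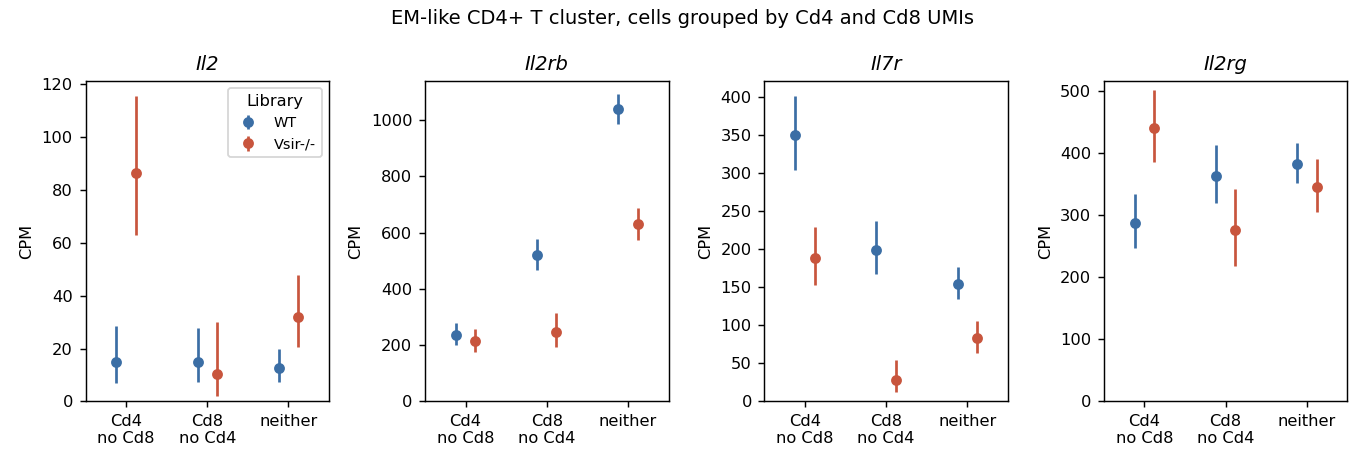
Levels of Il2, Il2rb, Il7r and Il2rg (CPM) in EM-like CD4+ T cells of the WT and Vsir-/- libraries, split by the Cd4 and Cd8 UMIs of each cell, with exact Poisson 95% intervals as bars. Il2 is far higher in Vsir-/- among cells with Cd4 and no Cd8 (15.1 and 86.4 CPM) and overlaps among cells with Cd8 and no Cd4 (15.1 and 10.3 CPM).

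The share of cells with a UMI of both of 2 chains was set beside the product of the single shares. Il2rb and Il2rg were found together in 72.9% of WT and 82.1% of Vsir-/- NK cells, where the products were 71.6% and 81.5%, and the EM-like CD4+ T cluster had 62.4% and 59.8% (products 61.1% and 58.1%). Il7r and Il2rg were together in 67.7% of WT non-EM-like CD8+ T cells, where the product was 67.7%. Il7r and Il2rb, chains of different receptors, were together in 27.6% of WT EM-like CD4+ T cells (product 28.8%) and 16.8% of Vsir-/- ones (20.1%), and the latter was 0.47 of the product after thinning to 1000 UMIs per cell. In WT neutrophils chains of 1 receptor were together above the product, at 3.44% against 0.728% for Il2rb with Il2rg and 4.96% against 1.05% for Il7r with Il2rg. Over all WT myeloid clusters, cells with at least 2 T or NK marker UMIs carried 91.3% of Il2rb and 86.6% of Il7r UMIs. Their median depth was 9183 UMIs against 4329 in the rest, and their part in these shares was not tested.

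The other genes of the pathway, a list of 28 of which 27 were found, gave 258 pairs of gene and cluster past the filter, 21 at least 2-fold higher and 37 at least 2-fold lower in Vsir-/-, where 17.6% and 9.83% of the pairs over all genes were. The EM-like CD4+ T cluster, in which Il2 was higher, also had higher sums of the feedback genes Cish and Socs2. There 3 of 24 listed genes that passed were past 2-fold higher and 1 lower, where 10.4% and 5.68% of all genes were. Whether Il2, Cish and Socs2 UMIs lay in the same cells was not tested. The part of the raised kidney tubule genes of the Vsir-/- library in these values was not tested either. Cish held 65.6 CPM (184 UMIs) in WT and 178 CPM (281 UMIs) in Vsir-/- (log2 1.44, 1.17 to 1.72), and Socs2 42.8 and 101 CPM (1.24, 0.88 to 1.59). Socs3 (40.7 and 78.0 CPM, 0.94) and the kinase gene Pim1 (343 and 498 CPM, 0.54) stayed within 2-fold, and Socs1 was at 97.8 and 114 CPM (0.22).

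Cish was past 2-fold higher in other clusters as well, with log2 ratios of 2.29 (1.18 to 3.32) in non-EM-like CD8+, 1.35 (0.47 to 2.18) in EM-like CD8+ and 1.15 (0.56 to 1.76) in γδ T cells. It was also past 2-fold higher in M2-like R2 macrophages (1.46, from 4.33 to 11.9 CPM), in pDC (1.01, on 2 and 18 UMIs) and in the non-EM-like CD4+ T cluster (3.45). In NK cells it was 0.24 (−0.83 to 1.17), from 18.4 to 21.7 CPM. The transducers in EM-like CD4+ T cells had 9 of 9 past the filter and 0 past 2-fold. Over all genes of that cluster 10.4% were past 2-fold higher and 5.68% lower. Jak1 stood at 384 and 332 CPM (−0.21) and Jak3 at 28.9 and 24.1 CPM (−0.26). Bcl2, a survival gene that IL-7 and IL-15 maintain, was lower in NK cells, at 319 and 150 CPM (−1.09), and in EM-like CD4+ T cells, at 286 and 154 CPM (−0.89). It was past 2-fold lower in B cells (−1.51), R1 macrophages (−1.38), neutrophils (−2.04), pDC (−1.16) and γδ T cells (−1.34) too, and in the non-EM-like CD4+ T and proliferating clusters (−2.20 and −1.31). Sums of T and B cell markers were also lower in R1, neutrophils and pDC of Vsir-/-. Their part in the Bcl2 values was not tested. Socs3 was higher in Other R2 macrophages (101 and 269 CPM, 1.41) and R1 (51.8 and 121 CPM, 1.22), and lower in neutrophils (237 and 102 CPM, −1.22).

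Of the other ligands, Il4 gave 20 and 24 UMIs in EM-like CD4+ T cells (log2 1.09, 0.17 to 2.02) and 31 UMIs in the 25 WT basophils. Il21, a helper T cell product, gave 29 WT and 3 Vsir-/- UMIs in the EM-like CD4+ T cluster (−2.44, −4.80 to −0.75). Il7 reached at most 12 UMIs in any cluster, so its source could not be read from these cells. Il2ra over the whole EM-like CD4+ T cluster held 36.7 and 38.0 CPM (0.05, −0.43 to 0.52), and WT ILC2 held 404 CPM.

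Across 29 pairs of cluster and library, the genes whose log2(CPM + 1) followed a member most closely, by Pearson's r, were Ctsw (0.95), Nkg7 (0.95) and Gm19585 (0.91) for Il2rb, and Gstp3 (0.88), Bcl11b (0.81) and Fam102a (0.80) for Il7r. Il2rg was followed by Med12 (0.90), Mettl23 (0.89) and Ikzf3 (0.89), and Il15 by Hacd4 (0.91), Cebpd (0.87) and Grina (0.85). Il21r was followed by Ly9 (0.84), Gpr18 (0.82) and Rpl35a (0.80). The values were under 0.80 for Il2 (Ccl1 0.78, Gata3 0.74, Cd40lg 0.73), Il4ra (Parp8 0.75, Cnr2 0.74, Il6ra 0.73) and Il15ra (Mdfic 0.71, Itm2b 0.69, Rnf5 0.67). Between members, Il2rb and Il2rg had an r of 0.69, and Il15 and Il2rg of −0.64. These values are descriptions over points that share 2 libraries and differ in cells and depth.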

How the data were processed

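Droplet (10x) single-cell RNA-seq was done on kidney cells of NTN mice, with 1 WT and 1 Vsir-/- library, grouped by the labels. The authors deposited raw UMI counts per gene and cell, not normalized, with a table that gives the library, the named cluster and the mitochondrial percent of each cell. Per the submitters' processing notes, Cell Ranger 3.1.0, R 4.0.3, Seurat 3.2.3 and build mm9 were used. The authors kept genes seen in at least 5 cells and cells with at least 200 UMIs and at most 10 percent mitochondrial UMIs, and merged both libraries before clustering, which mixes both genotypes into the cluster names. Clusters were found in Seurat and identified by the authors from a dot plot of genes. How doublets were treated is not given in the sources used here, and no doublet caller was used, so mixed cells remain. There were 0 value columns of no sample.

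From the deposited counts, the UMIs of each gene were summed within each cluster of each library and scaled to the sum of all UMIs there (CPM). Intervals were exact (95%): Poisson for levels, Clopper-Pearson for shares, conditional binomial for ratios. A zero was replaced by a floor of 3 counts in ratios, as a bound. Ratios were read where both libraries had at least 20 cells and the gene at least 20 UMIs over both, and called past 2-fold. Shares were also taken after thinning cells to 1000 or 2000 UMIs. Tools were scipy 1.17.1 and numpy 2.4.6 for the intervals, pandas 2.3.3 and matplotlib 3.10.9 for tables and figures (Python 3.11.15), and the ratio and interval code was tested on simulated data. With 1 library per genotype there is no test. All members were named, together with pathway genes with at least 20 UMIs in a cluster described and, for each member, the 3 genes most like it among those with at least 100 UMIs. The members and lists were chosen with earlier results of these data known. RefSeq start-site windows were matched by symbol for 6 of 8 members, and Il2rb and Il15 are named only. Alternatives were another CPM denominator, limits on mitochondrial percent, Ptprc or T cell transcripts, thinning, equal weight per cell, leaving out the top cell, other class definitions, other filters and centring on the median of all genes.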

Additional observations from a re-analysis of the deposited data

Results flagged for a closer look

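Il21r stood out because its lymphoid minus myeloid difference had opposite signs in the 2 libraries, with log2 values of 1.44 in WT and −0.75 in Vsir-/-. The difference between the libraries was not tested, since each genotype has 1 library. The Vsir-/- value was −0.38 among cells with at most 5 percent mitochondrial UMIs, −0.34 with equal weight for every cell and −0.28 after thinning to 1000 UMIs per cell. It was 0.03 among cells with Ptprc and 0.01 among T and proliferating cells with a T cell transcript.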

How the results depend on the processing

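Of 102 alternative values of the main results, 75 stayed within the counting interval or 1.5 times the count and 27 moved. These are counts, shares and ratios of shares, for which no reversal was defined. Of 1077 values of single genes and clusters, 880 stayed, 192 moved and 5 reversed. A reversal was called only for log2 ratios that were past 2-fold before the change. The limits on T or NK marker UMIs and on Cd4 and Cd8 UMIs were chosen after seeing the data. No paired analysis was possible because each genotype has 1 library, and no replicate could be left out.

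Il2rb in non-EM-like CD4+ T cells (−1.32) reversed to 0.91 among cells with Ptprc and 0.60 among cells with a T cell transcript. The interval of the latter held 0 (−0.06 to 1.22). After thinning to 1000 UMIs per cell Il2rg in proliferating cells was 0.23, Il7r in B cells 0.55 and Il21r in neutrophils 0.72. The 2 members past 2-fold higher in myeloid cells of Vsir-/- became 1 without mitochondrial and ribosomal protein UMIs, with at most 5 percent mitochondrial UMIs, with Ptprc, with a T cell transcript and with fewer than 2 T or NK marker UMIs. The 5 pairs past 2-fold higher in Vsir-/- became 3 with at most 5 percent mitochondrial UMIs, with Ptprc or with a T cell transcript, 0 after thinning, 8 at a filter of 10 UMIs and 3 at 50. The 26 lower pairs became 17 with Ptprc, 10 after thinning (34 pairs passed in place of 74) and 16 with fewer than 2 T or NK marker UMIs.

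Shares fell with depth by construction. Thinned to 1000 and to 2000 UMIs, the share of NK cells with Il2rb was 50% and 74.1% in WT (90.2% unthinned) and 46.3% and 70.8% in Vsir-/- (91.0%), that of non-EM-like CD8+ T cells with Il7r 36.0% and 57.0% (84.2%) and 28% and 50% (78%), and that of neutrophils with Il15 4.97% and 12.9% (23.5%) and 6.54% and 14.6% (27.8%). The observed share of Vsir-/- EM-like CD4+ T cells with Il7r and Il2rb, over the product of the single shares, went from 0.84 to 0.47 after thinning to 1000 UMIs. Thinning left out 167 WT and 78 Vsir-/- cells at 1000 UMIs and 531 and 185 at 2000. Depth limits Il2, Il15 and Il15ra, with at most 142 UMIs in any cluster, and the γδ T and EM-like CD8+ T clusters of Vsir-/-, with 28 cells each.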
